A study of Mus musculus with 3 samples.

Results

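The 5 genes described here are the mouse stefin A genes *Stfa1*, *Stfa2*, *Stfa3* and *Cstdc5*, together with *Gm94*, a predicted protein-coding gene outside the stefin A cluster, among 32285 genes in the deposited tables. They were picked by symbol, because *Stfa3* and *Cstdc5* mark a group of Day 14 spots. In the Day 14 region described last, *Stfa3*, *Cstdc5* and *Gm94* were the 3 genes with the highest fold over the rest of the section, among genes with at least 100 UMIs. *Stfa1* and *Stfa2* were added by family name. Those Day 14 folds are therefore given below as a description. The genes were measured with Visium, a slide on which barcoded spots capture polyadenylated RNA from the tissue above them and count molecules as unique molecular identifiers (UMIs). Wounds were full-thickness punch excisions in the dorsal skin of adult male C57BL/6J mice, and 1 fresh frozen section was measured on each of Days 3, 7, and 14 after injury. No section of unwounded skin was used here, and wound age and animal cannot be told apart. With 1 section per day there is no replicate spread, so no test between days was made. All intervals are 95% intervals and cover counting error only. A spot is a small region that can hold several cells of different types.

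Stefins are small intracellular inhibitors of the cystatin superfamily. They bind the active-site cleft of papain-like cysteine proteases, among them the lysosomal cathepsins, and block it reversibly. Humans have a single stefin A gene, whose product is abundant in stratified epithelia and contributes to the cornified envelope, whereas the mouse carries a cluster of stefin A copies that are known from keratinocytes and from neutrophils. Fewer cells of a type and less RNA per cell cannot be told apart in such spots.

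The 10 stefin A family genes of the table lie on one stretch of chromosome 16, chr16:36119946-36455392 in the GRCm38 build (335 kb, GENCODE M21), 5 on each strand. *Stfa1* spans chr16:36276951-36285373 on the plus strand, *Cstdc5* chr16:36359382-36367748, *Stfa2* chr16:36403992-36408457 and *Stfa3* chr16:36450537-36455392 on the minus strand. Each is annotated as protein coding, and the coding sequence of *Stfa3* runs through 3 exons and 309 bases. The first 120 coding bases of 6 copies are shown because the members are told apart only by such differences. Capitals mark bases that differ from *Stfa3* or have no *Stfa3* base opposite them in the alignment.
Stfa3: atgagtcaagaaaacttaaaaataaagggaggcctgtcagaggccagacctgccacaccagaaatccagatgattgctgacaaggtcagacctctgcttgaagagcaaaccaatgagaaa
Cstdc5: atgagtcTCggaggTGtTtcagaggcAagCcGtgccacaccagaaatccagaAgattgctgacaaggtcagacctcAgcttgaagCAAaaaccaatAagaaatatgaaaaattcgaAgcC
Stfa1: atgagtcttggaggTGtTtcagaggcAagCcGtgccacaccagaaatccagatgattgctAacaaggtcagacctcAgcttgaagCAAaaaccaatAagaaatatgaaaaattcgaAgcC
Stfa2: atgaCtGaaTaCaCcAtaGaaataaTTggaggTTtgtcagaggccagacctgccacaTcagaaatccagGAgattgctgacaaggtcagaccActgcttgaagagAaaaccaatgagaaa
Stfa2l1: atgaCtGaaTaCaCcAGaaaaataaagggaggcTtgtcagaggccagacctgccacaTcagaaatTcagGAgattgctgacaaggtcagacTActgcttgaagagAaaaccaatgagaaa
Cstdc4: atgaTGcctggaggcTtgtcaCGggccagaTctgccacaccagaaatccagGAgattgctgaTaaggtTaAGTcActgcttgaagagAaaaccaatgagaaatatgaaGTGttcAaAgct

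Over the whole coding sequence *Stfa3* was 79.3% identical to *Cstdc5*, 80.9% to *Stfa2* and 76.4% to *Csta1*. Counted over the aligned length, the closest pairs were *Csta2* with *Cstdc4* at 96.9%, *Stfa2* with *Stfa2l1* at 96.4% and *Cstdc5* with *Cstdc6* at 95.2%. *Stfa1* and *Cstdc5* scored 74.2% on this measure, because the longest *Stfa1* coding sequence, of 384 bases, was aligned with 291 bases of *Cstdc5*. Identical bases in that pair numbered 285, so the pair is closer than 74.2% shows. Near the 3′ end, which the capture chemistry reads, no run of 100 bases within the last 400 bases of *Stfa3* or *Stfa2* occurred in another family gene. For *Stfa1* 36 of 493 such runs (7.30%) also occurred in *Cstdc5*, and for *Cstdc5* 75 of 593 (12.6%) also occurred in *Cstdc6* or *Stfa1*. Counts of *Stfa3* were thus separable by sequence, whereas *Cstdc5* and *Stfa1* may have exchanged or lost a minority of reads.

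The upstream stretches are shown because several copies moved together between days. Each line holds the 250 bases before the RefSeq start (GRCm38.p6), and capitals mark TTTAAA and the C/EBP letters TTGCNNAA. They lie at chr16:36455393-36455642 for *Stfa3* and chr16:36367571-36367820 for *Cstdc5* on the minus strand, and at chr16:36276898-36277147 for *Stfa1* on the plus strand.
Stfa3: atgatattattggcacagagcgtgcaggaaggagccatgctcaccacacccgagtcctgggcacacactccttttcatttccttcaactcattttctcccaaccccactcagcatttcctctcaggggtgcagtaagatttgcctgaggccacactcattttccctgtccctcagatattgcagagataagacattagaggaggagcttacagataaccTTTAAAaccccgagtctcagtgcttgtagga
Cstdc5: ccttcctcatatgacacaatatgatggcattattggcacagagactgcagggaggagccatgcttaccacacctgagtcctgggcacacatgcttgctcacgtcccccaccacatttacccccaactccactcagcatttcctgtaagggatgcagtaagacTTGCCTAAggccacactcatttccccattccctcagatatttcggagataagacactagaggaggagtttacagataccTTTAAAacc
Stfa1: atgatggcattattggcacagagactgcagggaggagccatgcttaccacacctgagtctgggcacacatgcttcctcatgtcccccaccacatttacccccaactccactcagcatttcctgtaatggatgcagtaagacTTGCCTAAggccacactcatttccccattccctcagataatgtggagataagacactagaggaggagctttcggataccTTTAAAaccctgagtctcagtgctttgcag

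Windows of 300 bases around the RefSeq start, 250 before it and 50 after it, were found for 9 of the 10 family genes and searched on both strands. TTTAAA stood in 8 of 9 family windows, against 13.2% of 32851 windows in the reference, and these letters were chosen after the sequences had been seen. In *Stfa3*, *Stfa1* and *Stfa2* it began 31, 30 and 29 bases before the start, and in *Cstdc5* 9 bases before the RefSeq start. TTGCNNAA stood in 3 of 9 windows (*Stfa1*, *Cstdc5* and *Csta3*), against 10.8% of all windows. The AP-1 letters TGANTCA stood in 1 of 9 windows (*Stfa3*, in the first coding bases), against 7.81%. TATAAA, held by 13.6% of all windows, and the GRHL letters AACNNGTT, held by 4.20%, stood in 0 of 9. These are matches of letters only. The *Cstdc5* and *Stfa1* windows were 83.8% identical, and those of *Stfa3* and *Cstdc5* 74.1%.

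The 3 slides held 664, 549 and 697 under-tissue spots on Days 3, 7, and 14, with 1772259, 4442962 and 4611723 UMIs, and 4992 spots per slide in all. Spots not marked as tissue held 1703210, 6457066 and 4715272 UMIs. Day 3 was the shallowest section, with a median of 1513 UMIs per under-tissue spot, against 6687 on Day 7 and 4827 on Day 14. The same 4992 spot barcodes are printed on every slide, so shared barcodes carry no information on shared material. Levels are given as pooled UMIs per 1000000 UMIs of the spots concerned (CPM).

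The label of the gene set points to Day 14, but the 4 stefin A genes together stood highest on Day 3. Under tissue the sum of the 4 genes reached 550 CPM (516–585; 974 UMIs) on Day 3. The Day 7 section gave 111 CPM (102–122; 495 UMIs) and the Day 14 section 69.6 CPM (62.2–77.7; 321 UMIs). The 3 intervals did not overlap. *Gm94* had another order, with its highest level on Day 14.

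*Cstdc5*, a stefin A copy named BC100530 in older annotation, stood at 357, 56.9 and 26.7 CPM on the 3 days in turn. *Stfa1* stood at 72.8, 9.23 and 3.47 CPM, with 129, 41 and 16 UMIs behind these levels. *Stfa3* stood at 117, 45.0 and 39.5 CPM, from 208, 200 and 182 UMIs. *Cstdc5* and *Stfa1* thus separated all 3 days beyond counting error, whereas *Stfa3* separated only Day 3 from the later days. *Stfa2* was close to the detection limit throughout. Its under-tissue UMIs numbered 4, 1 and 0, and the 0 of Day 14 allows a level of up to 0.651 CPM.

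**Figure D1:**
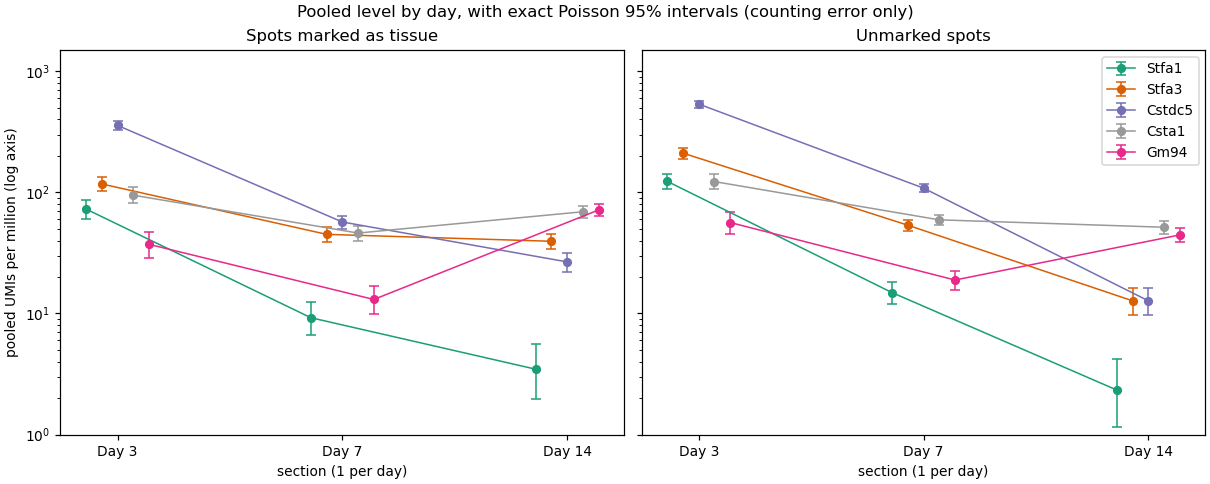
Pooled CPM (log axis) of Stfa1, Stfa3, Cstdc5, Csta1 and Gm94 in the Day 3, Day 7, and Day 14 sections, in spots marked as tissue (left) and in unmarked spots (right); points are pooled levels and bars are exact Poisson 95% intervals. Under tissue Cstdc5 goes from 357 to 26.7 CPM and Stfa1 from 72.8 to 3.47 CPM between Days 3 and 14, while Gm94 goes from 37.2 to 71.6 CPM.

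On the log2 scale the summed stefin A level was lower on Day 7 than on Day 3 by 2.30 (4.93-fold; log2 ratio −2.30, −2.46 to −2.14), and Day 14 over Day 3 was −2.98 (−3.17 to −2.80). Single genes differed widely in the Day 14 over Day 3 ratio, with −4.39 for *Stfa1*, −3.74 for *Cstdc5* and −1.57 for *Stfa3*. From Day 7 to Day 14 the ratio was −1.41 for *Stfa1* and −1.09 for *Cstdc5*, but −0.19 for *Stfa3* with an interval of −0.49 to 0.11. *Gm94* was lower on Day 7 than on Day 3 (−1.51) and then 5.48-fold higher on Day 14 than on Day 7 (log2 ratio 2.45, 2.05 to 2.88). Counted as 2-fold or more among genes with at least 50 UMIs in the compared pair of sections, 4 of 4 measured members were lower on Day 7 than on Day 3, where 6.49% of all genes counted were. Of the same 4 members, 3 were lower on Day 14 than on Day 3, against 6.83% of all genes. Between Days 7 and 14, 2 were lower (7.34% of all genes) and 1, *Gm94*, was higher (10.9% of all genes). *Stfa2* did not reach 50 UMIs in any pair. *Stfa1* reached 50 UMIs in the pairs with Day 3 largely through that day. The median log2 ratio over all genes was 0.04, 0.12 and 0.18 for Day 7 over Day 3, Day 14 over Day 7 and Day 14 over Day 3.

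Much of the Day 3 level came from 1 place on the slide. Without the disc of 5 spot pitches around the spot richest in stefin A on each slide, an alternative chosen after seeing the data, the Day 7 over Day 3 ratio of the sum was −1.13 and the Day 3 level was 236 CPM. Day 14 over Day 3 was then −2.62. Over all spots of the slide instead of under-tissue spots it was −3.87.

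The other copies of the cluster split into genes seen almost only on Day 3 and a gene present on every day. *Cstdc4* had 103, 2 and 0 UMIs under tissue on Days 3, 7, and 14, and *Stfa2l1* had 35, 1 and 0. Of the runs of 100 bases near the 3′ end of *Cstdc4*, 35 of 504 (6.94%) also occurred in *Csta2*, so that some reads of this pair are uncertain in their split. *Stfa2l1* and *Stfa2* shared no such run. *Csta1*, the copy named for human cystatin A, stood at 94.8, 46.1 and 69.2 CPM. *Csta2*, *Csta3* and *Cstdc6* had at most 8 UMIs in any section under tissue.

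Of the 12 cystatins listed outside the cluster, 3 reached 50 UMIs, and they differed among themselves. *Cstb*, the other stefin of the mouse, stood at 311, 204 and 206 CPM, and *Cst3*, the secreted cystatin C, at 1093, 1011 and 1012 CPM. *Cst6*, the cystatin E/M of the cornifying epidermis, stood at 334, 143 and 509 CPM, with its highest level on Day 14 as for *Gm94* and a lower level on Day 7 than on Day 3 by more than 2-fold. The cysteine cathepsin list, which also holds *Lgmn*, had 9 of 10 measured genes lower on Day 14 than on Day 3 by 2-fold or more (6.83% of all genes). On Day 7 against Day 3 only 1 of 10 was lower (6.49%). The Day 14 over Day 3 log2 ratio was −1.89 for *Ctsb*, −1.81 for *Ctss* and −1.16 for *Ctsl*.

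The make-up of the stefin A signal also differed between days. The ratio of *Cstdc5* to *Stfa3* UMIs under tissue was 3.04 (2.60–3.58), 1.27 (1.05–1.53) and 0.676 (0.533–0.854) in the order of days. *Stfa3* accounted for 21.4%, 40.4% and 56.7% of the summed UMIs on the 3 days. Without the 10 richest spots of each section the ratio was 2.26, 1.34 and 0.927, and in unmarked spots it was 2.54, 2.02 and 1.0. The order of the days was the same in each set. The 2 richest under-tissue spots of Day 3 held 119 and 47 *Cstdc5* UMIs beside 27 and 5 *Stfa3* UMIs, and the richest unmarked spot of that day held 76 beside 42.

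The spots richest in stefin A lay close together on each slide, although most stefin A UMIs lay elsewhere. On Day 3 the richest spot held 158 UMIs of the 4 genes and lay at the margin of the marked tissue, and an unmarked spot beside the mark held 127. On Day 7 the richest spots were unmarked, 1 pitch from the tissue mark or just beyond, with 63, 56 and 50 UMIs, while no under-tissue spot held more than 14. On Day 14 the richest spot was under tissue, with 43 UMIs, and no unmarked spot held more than 2.

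**Figure D2:**
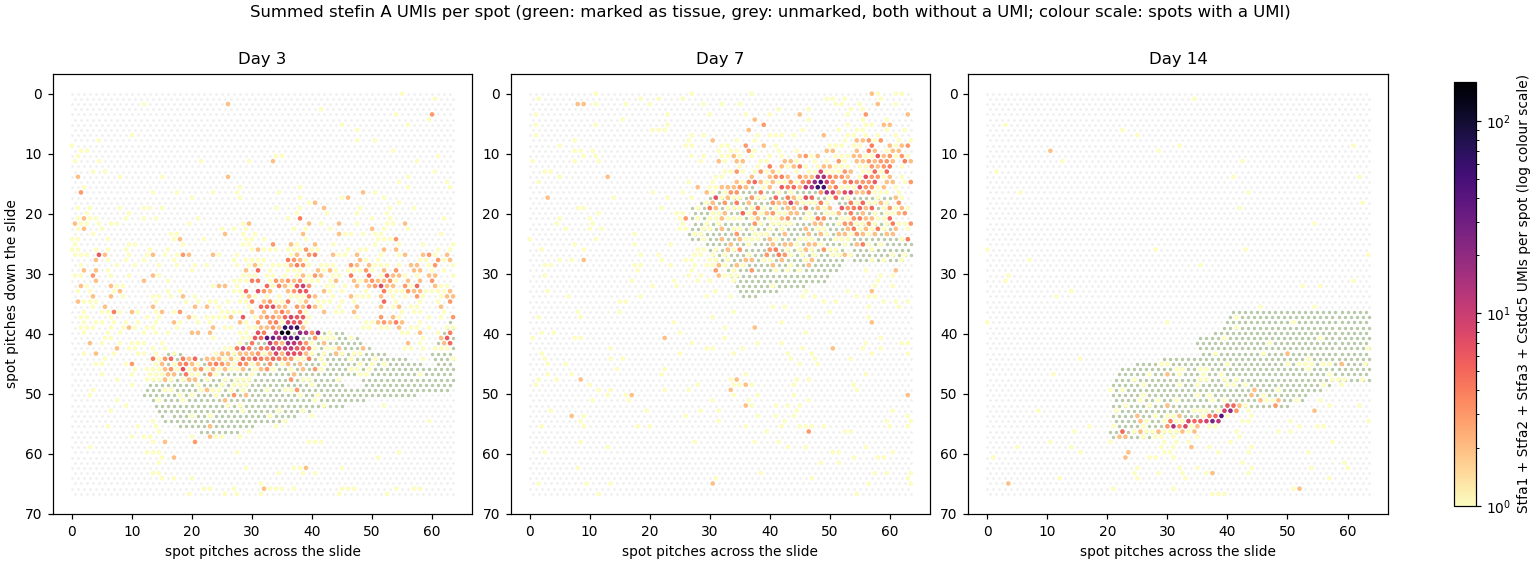
Summed Stfa1, Stfa2, Stfa3 and Cstdc5 UMIs in each spot of the Day 3, Day 7, and Day 14 slides, with both axes in spot pitches; green spots are marked as tissue, grey spots are unmarked, and spots with a UMI are coloured on a log scale. Each slide has 1 dark patch, which holds the richest spots of 158, 63 and 43 UMIs; it straddles the tissue margin on Day 3, lies just outside it on Day 7 and runs as a thin strip along the margin on Day 14.

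The disc of 91 spots around the richest spot held 1045 of 2468 stefin A UMIs of the Day 3 slide (42.3%), with 12.3% of all its UMIs. It held 412 of 1643 on Day 7 (25.1%, with 6.12% of all UMIs) and 176 of 452 on Day 14 (38.9%, with 7.12% of all UMIs). Each disc was placed on the spot with the most stefin A UMIs, so a high share of the summed genes in it was built in. *Gm94* was not used for the placing and was not gathered in the Day 3 disc, which held 11.7% of its UMIs. The Day 14 disc held 15.4% of the *Gm94* UMIs, against 46.3% for *Stfa3*, which was used for the placing. The epidermal wound keratin *Krt6a* followed the Day 3 disc, with 40.2% of its UMIs there. *Cstdc4* was not gathered there, with 9.38% of its UMIs. The Day 7 disc also held 92 of the 216 *S100a8* UMIs of its slide (42.6%), where *S100a8* encodes a calcium-binding protein of neutrophils and of wounded keratinocytes. The discs of Days 3 and 14 held 13.6% and 2.76% of the *S100a8* UMIs of their slides. The Day 7 disc held 21.6% of the *Csta1* UMIs and 18.0% of the *Krt6a* UMIs of its slide.

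Outside the tissue mark the stefin A level was higher than under it on Days 3 and 7 and lower on Day 14. Unmarked spots held the 4 genes at 877, 178 and 27.8 CPM in the order of days. The log2 ratio of unmarked over under-tissue spots was 0.67 (0.56–0.79) on Day 3, 0.67 (0.52–0.83) on Day 7 and −1.33 (−1.63 to −1.03) on Day 14. The Day 3 ratio depended on shallow spots and was −0.15 among spots with at least 500 UMIs. The Day 7 ratio depended on spots near the tissue and was −0.011 with unmarked spots at least 5 pitches away. The median over all genes was −0.38 on Days 3 and 7 and −0.54 on Day 14.

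*Cstdc5* had an outside over under log2 ratio of 0.59, 0.93 and −1.07 on Days 3, 7, and 14. *Stfa3* had 0.84, 0.25 and −1.63. On Day 14, 2 of 3 measured members were lower outside by 2-fold or more, where 13.7% of all genes were, and on Days 3 and 7 none of 4 members was higher by 2-fold, where 3.40% and 3.36% of all genes were. *Stfa1* had 0.76 on Day 3 and 0.69 on Day 7, and its 11 unmarked UMIs on Day 14 gave no count. *Gm94* followed the same signs with 0.60, 0.53 and −0.68.

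By distance from the mark, the zone up to 1.5 pitches stood above the tissue on Days 3 and 7, with 1603 and 547 CPM of the stefin A sum. A few spots held much of this. Single spots of the zone held 127, 71, 44 and 31 of its 346 stefin A UMIs on Day 3. On Day 7 single spots held 63 and 56 of 278. On Day 7 the level then went down with distance, from 278 CPM at 1.5 to 5 pitches to 86.4 CPM beyond 10 pitches. On Day 3 it was 467 CPM at 1.5 to 5 pitches and 1351 CPM beyond 10 pitches. That far zone rests on 519 UMIs in 2826 spots with a median depth of 49 UMIs. Epidermal and neutrophil genes also stood high there. The neutrophil list, with 11 of 12 genes detected and *Camp* at 0, stood at 6738 CPM against 2054 CPM under tissue, and a list of wound-activated epidermal genes at 4875 CPM against 1864 CPM. Their part in the stefin A level was not tested.

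On Day 14 the stefin A level was 69.6 CPM under tissue, 47.2 CPM (27.5–75.6; 17 UMIs) in the nearest zone and 22.4 CPM (16.4–29.8) beyond 10 pitches. The interval of the nearest zone overlapped that of the tissue (62.2–77.7). *Gm94* had its Day 14 maximum in the nearest unmarked zone instead, at 158 CPM (120–205) against 71.6 CPM under tissue. *Csta1* did the same, at 158 CPM against 69.2 CPM. Beside the mark *Gm94* and *Csta1* thus stood above their under-tissue levels, and the stefin A sum did not.

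**Figure D3:**
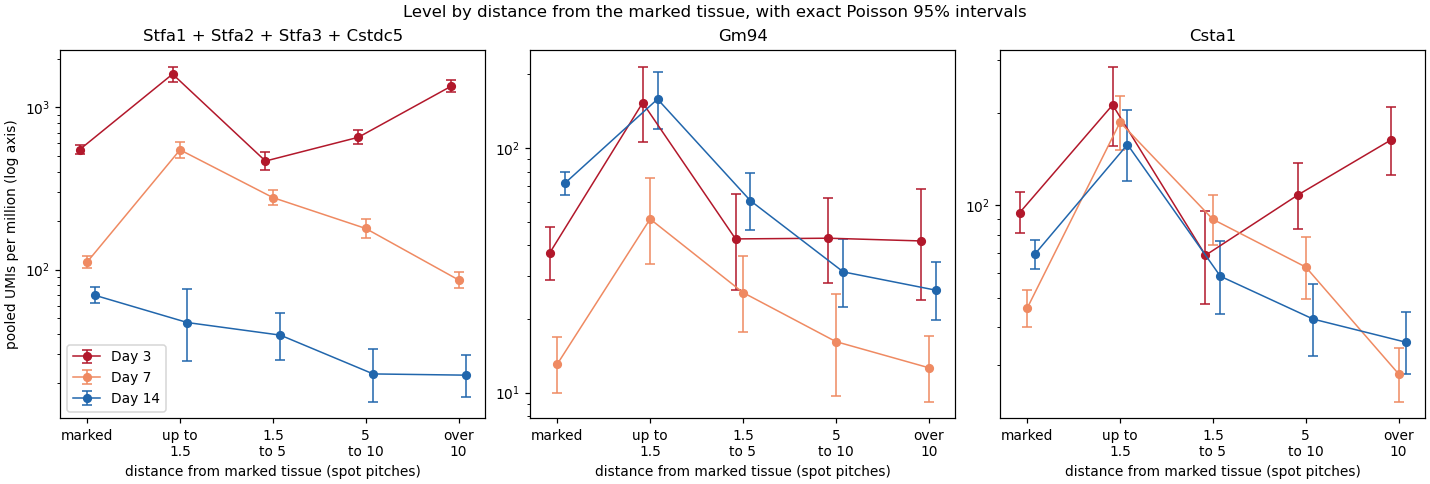
Pooled CPM (log axis, a range of its own in each panel) of the stefin A sum, Gm94 and Csta1 in spots marked as tissue and in 4 zones of unmarked spots by distance from the mark in spot pitches; points are pooled levels and bars are exact Poisson 95% intervals. The stefin A sum peaks beside the mark on Days 3 and 7 (1603 and 547 CPM) but not on Day 14 (47.2 CPM), whereas Gm94 and Csta1 both reach 158 CPM beside the mark on Day 14. A few rich spots hold much of the Day 3 and Day 7 peaks.

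A stefin A UMI was found in 225 of 664 under-tissue spots on Day 3 (33.9%), in 261 of 549 on Day 7 (47.5%) and in 124 of 697 on Day 14 (17.8%). Spots with a stefin A UMI were the deeper ones; their median UMI totals were 4182, 9462 and 9446.5, compared with 1003, 4045.5 and 4286 in spots without one. After each spot was thinned to 1000 UMIs, and shallower spots were left out, the shares were 19.7% on Day 3 (84 of 426 spots; 16.0–23.8), 9.71% on Day 7 (51 of 525; 7.32–12.6) and 3.98% on Day 14 (27 of 679; 2.64–5.73). The order of the days after thinning was that of the pooled levels. The *Gm94* shares after thinning were 1.88%, 1.33% and 4.27%. Unmarked spots had shares of 11.9%, 12.7% and 2.81% for the stefin A genes.

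Under tissue the signal was spread over more spots on Day 7 than on the other days. The 10 richest under-tissue spots held 47.9%, 13.7% and 48.3% of the stefin A UMIs on Days 3, 7, and 14. Spots with a stefin A UMI had at least 1 adjacent spot with one in 92.9%, 94.6% and 72.6% of cases. Such values rise with the share of spots that hold a UMI, which was 33.9%, 47.5% and 17.8%. They were not compared with random placement and do not show clustering.

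The neighbours of the stefin A genes differed between days. In Day 3 spots with a stefin A UMI, the wound-activated list (*Krt6a*, *Krt6b*, *Krt16*, small proline-rich and connexin genes) stood 1.63 higher on the log2 scale than in the other spots (1.49–1.77), and 6 of 6 measured genes were higher by 2-fold or more, where 10.7% of all genes were. The log2 ratio of this list was 0.29 on Day 7 (0 of 9; 0.371% of all genes) and 0.09 on Day 14 (0 of 5; 1.48%). The suprabasal list, the keratins and partners of differentiating epidermis, had 1.49 on Day 3 (8 of 8), 0.11 on Day 7 (0 of 8) and 1.3 on Day 14 (5 of 8). The cornified list, the late envelope genes, had 1.18 (6 of 8), −0.14 (0 of 10) and 1.26 (7 of 12). The Day 14 values of these lists are not independent of the choice of *Stfa3* and *Cstdc5*, which were picked for marking Day 14 spots. The Day 3 difference was not particular to these lists. The sebaceous gland list had 1.52 (6 of 6), the outer layers of the hair follicle 1.63 (2 of 3) and the matrix fibroblast list 1.17 (5 of 8). In contrast, 8 of 8 skeletal muscle and 8 of 8 fat genes were lower by 2-fold or more, where 303 of 5669 genes counted were. On Day 14 the wound-activated list was present but even at this cut, at 887 CPM in stefin A spots and 832 CPM in the others. In spots with at least 3 stefin A UMIs it was lower, at 559 CPM against 869 CPM (log2 ratio −0.63, −0.86 to −0.42).

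Single genes showed the same contrast. *Krt6a* had a log2 ratio of 1.96, 0.42 and 0.07 on Days 3, 7, and 14 and *Krt16* 1.38, 0.35 and 0.10. *Krt1*, the spinous-layer keratin, had 1.35, 0.23 and 2.0, and *Flg*, the filaggrin precursor of the granular layer, had 0.89, −0.30 and 1.93. The Day 14 values of single genes carry the same dependence on the choice of members. Depth differs between the compared spots, as given above, and its part in these ratios was not tested. The basal list had 1.55, 0.25 and 0.82.

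With a cut of 1 stefin A UMI, the neutrophil level of under-tissue spots differed by less than counting error on Days 3 and 7. The neutrophil list had a log2 ratio of 0.02 on Day 3 (−0.08 to 0.12), with 0 of 7 measured genes higher by 2-fold, and −0.03 on Day 7 (−0.37 to 0.32). The list's level under tissue was 2054, 67.7 and 98.9 CPM over the 3 days. With at least 3 stefin A UMIs the Day 3 ratio was 0.28 (0.18–0.38). Around the richest Day 7 spot, which was unmarked, the disc described above held the list at 309 CPM against 57.1 CPM in the rest of the slide. The wound-activated list was also higher in that disc, at 2860 CPM against 633 CPM. The basal list stood at 3091 CPM against 2677 CPM. On Day 7 *Retnlg*, *Ly6g*, *Ngp* and *Trem1* were at 0 and on Day 14 *Ly6g* and *Trem1* were at 0. On Day 14 the ratio was 0.50 (0.22–0.78), in 0 of 3 measured genes past 2-fold. *Il1r2* alone held 175 of the 456 list UMIs under tissue on that day. In the Day 14 region of 44 spots described below, *Il1r2* was 5.56-fold higher than elsewhere. *S100a8* and *S100a9* stood at 0.875-fold and 0.824-fold there, so the list did not rise as a whole. *S100a8* itself had 0.09 on Day 3, −0.05 on Day 7 and 0.15 on Day 14, with intervals that included 0 on each day.

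**Figure D4:**
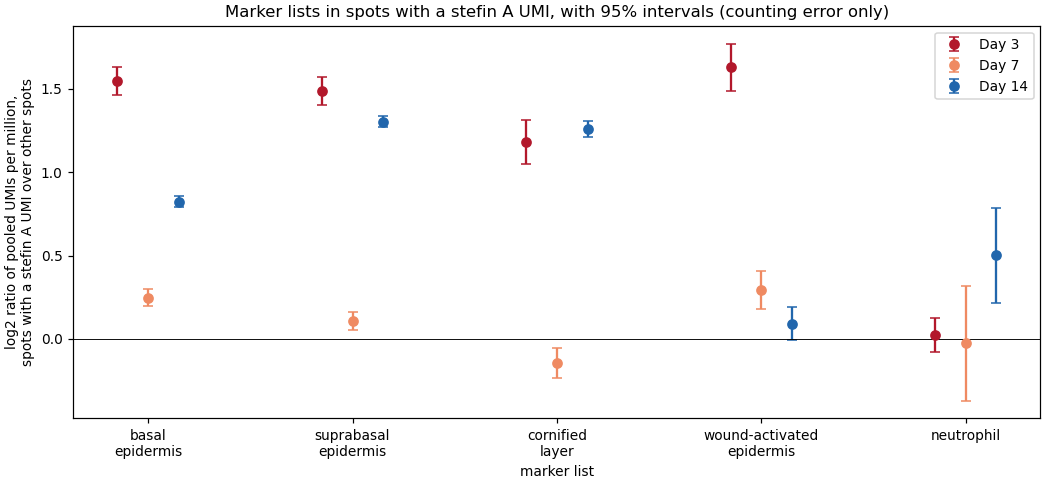
Log2 ratio of pooled CPM in under-tissue spots with at least 1 stefin A UMI over the other under-tissue spots, for 5 marker lists on Days 3, 7, and 14; bars are 95% intervals for counting error. The wound-activated list stands at 1.63 on Day 3 and 0.09 on Day 14, while the suprabasal and cornified lists stand above 1 on both days. The Day 7 values lie between −0.14 and 0.29. The Day 14 values are not independent of the choice of Stfa3 and Cstdc5.

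Correlations of log-scaled levels across spots gave the partner genes; the spots share section, depth and sparse counts, and the values are a description. For the stefin A sum the leading partners were *Krt14*, *Perp*, *Lor*, *Lgals7* and *Krt6a* on Day 3 (Pearson r from 0.44 to 0.40 over 664 spots) and *Lgals7*, *Rnf4*, *Krt14*, *Lum* and *Krt1* on Day 7 (0.28 to 0.24 over 549 spots). On Day 14 they were *Flg* (0.42), *Krt1* (0.41), *Calm4* (0.39), *Fcgbp* (0.37) and *Krt10* (0.36) over 697 spots. *Stfa3* and *Cstdc5* were picked for marking a group of Day 14 spots, so the Day 14 partners are not independent of that choice. *Flg* had r = 0.20 on Day 3, 0.02 on Day 7 and 0.42 on Day 14, while *Krt6a* had 0.40, 0.20 and 0.11. These orders changed with depth. After thinning to 1000 UMIs, 2 of 5 leading partners on Day 3, 1 of 5 on Day 7 and 3 of 10 on Day 14 were the same genes.

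Among the members, *Stfa3* and *Cstdc5* had r = 0.34, 0.07 and 0.41 with each other on Days 3, 7, and 14. On Day 14, 27 spots held both, of 77 with *Stfa3* and 71 with *Cstdc5*. *Stfa1* had its highest value with *Csta1* on Day 3, at 0.40. *Cstdc4*, which was seen almost only on Day 3, had 0.13 with *Cstdc5*, 0.01 with *Stfa3* and −0.00 with *Stfa1*, and its leading partners were *Srgn* (0.33), *S100a9* (0.31) and *S100a8* (0.29), genes of granule-bearing leukocytes. *Cstdc4* lay in 85 Day 3 spots, of which 48 also held *Cstdc5*.

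*Gm94* is not a neighbour of the stefin A cluster. It lies at chr18:43777196-43792878 on the minus strand, with 4 exons, and no stefin A family gene lies on that chromosome. Its leading partners were late cornification genes on each day: *Crct1* (0.49), *Flg2* (0.49) and *Lce1a1* (0.48) on Day 3, *Lce1a2* (0.29), *Flg2* (0.29) and *Asprv1* (0.28) on Day 7 and *Kprp* (0.50), *Asprv1* (0.49) and *Lce1a2* (0.47) on Day 14. After thinning, 0, 0 and 2 of its 5 leading partners were the same genes. *Asprv1* encodes a protease of the granular layer that processes filaggrin. *Gm94* had r = 0.27, 0.25 and 0.41 with *Csta1*, and 0.10, 0.09 and 0.25 with *Stfa3*. On Day 3 a k-means region led by *Aldh3a1*, *Cidea* and *Defb8*, with 43.1% of the section's UMIs, held 53 of the 66 *Gm94* UMIs and 457 of the 974 stefin A UMIs. A region led by *Cxcl5*, *Timp1* and *Hmox1*, with 27.4% of the UMIs, held 10 *Gm94* UMIs and 431 stefin A UMIs. The second region thus held much of the stefin A signal with little *Gm94*.

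The Day 14 region in which *Stfa3*, *Cstdc5* and *Gm94* had the highest folds, among genes with at least 100 UMIs in the section, is described last. Clustering of the under-tissue spots by k-means into 5 regions, with the stefin A family genes and *Gm94* left out of the clustering, gave a region of 44 spots (6.31% of spots, 11.4% of UMIs). Its median depth was 11277 UMIs per spot. It held 217 of the 321 stefin A UMIs (67.6%), at 413 CPM (360–471) against 25.5 CPM in the other 653 spots. *Stfa3* stood at 245 against 13 CPM there (18.9-fold), *Cstdc5* at 146 against 11.3 CPM (13-fold) and *Gm94* at 375 against 32.6 CPM (11.5-fold). Since *Stfa3* and *Cstdc5* were picked for marking Day 14 spots, these folds are a description only. The folds also depended on the number of regions. With 4 centres the region grew to 253 spots with 61.8% of the section's UMIs, and the log2 ratio of the stefin A sum went from 4.02 to 2.0; with 6 centres or Ward clustering it was 4.01 and 3.82. Next by fold in the region of 44 spots were *Fcgbp* at 10.3-fold and *Calm4* at 9.65-fold.

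*Stfa1*, which was added by family name, had 11 of its 16 UMIs in the region, and *Csta1* had 166 of 319, at 316 against 37.4 CPM (8.43-fold). Of the cystatins outside the cluster, *Cst6* was 1.32-fold higher in the region (log2 ratio 0.40, 0.24 to 0.57), and *Cstb* and *Cst3* stood at 1.08-fold and 0.993-fold. A stefin A UMI lay in 36 of 44 spots of the region and in 88 of 653 others, and after thinning to 1000 UMIs in 11 of 44 (25%) and 16 of 635 (2.52%). *Gm94* lay in 40 of the 44 spots.

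The leading genes of the region after the members were those of the spinous and granular layers, among them *Krt10* (9.41-fold), *Krt1* (9.31-fold) and *Flg* (8.52-fold). In it 7 of 8 suprabasal, 10 of 12 cornified and 7 of 8 basal genes were higher by 2-fold or more, where 4.80% of all genes were. All 3 measured members were higher too, but they were picked with earlier results of these data known. Of the wound-activated list 0 of 5 measured genes were higher and 2 were lower. Of the hair inner root sheath list 7 of 8 genes were lower and of the skeletal muscle list 6 of 8, where 9.57% of all genes were. Of the cysteine cathepsin list 0 of 10 measured genes were higher. Among the other regions the stefin A sum stood at 23.5, 27.8 and 8.55 CPM in the 3 largest. A further region of 20 shallow spots, led by the cornified-envelope gene *Lce1g* and *Flg*, held 5 stefin A UMIs, at 275 CPM (89.4–643), and 13 *Gm94* UMIs, at 716 CPM (381–1224). Its stefin A interval included the level of the region of 44 spots, and its *Gm94* level stood higher than there, on few UMIs.

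**Figure D5:**
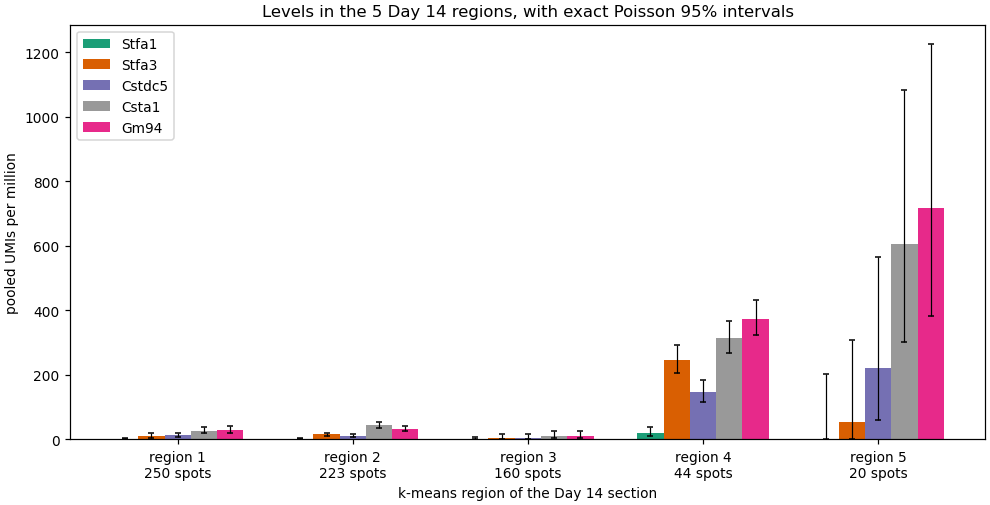
Pooled CPM of Stfa1, Stfa3, Cstdc5, Csta1 and Gm94 in the 5 k-means regions of the Day 14 section; bars start at 0 and lines are exact Poisson 95% intervals. Region 4, of 44 spots, stands above regions 1 to 3 for each gene (Stfa3 at 245 CPM, Gm94 at 375 CPM), and region 5, of 20 shallow spots, has wide intervals.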

How the data were processed

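Frozen skin wound sections were captured on Visium slides by the authors, and the reads were turned into count matrices with Space Ranger 1.3.0 on mm10, per the submitters' processing notes. Which annotation was counted is not given in the sources used here. Deposited files hold raw UMI counts per gene and spot, unnormalized, and mark which spots lie under tissue. From them, counts were pooled over spots and divided by all UMIs (CPM). Exact Poisson and Clopper-Pearson intervals (95%) were given to levels and shares, and ratio intervals came from the conditional binomial. They cover counting error only. Spots were thinned to 1000 UMIs (seed 1), and partner genes were ranked by Pearson correlation of log counts per 10000 among genes with at least 100 UMIs. Regions came from k-means (5 centres, 20 components, 2000 variable genes, scikit-learn 1.9.0). Genes of 2-fold or more were counted among those with 50 UMIs. Scaling alternatives used edgeR 4.0.16 and DESeq2 1.42.0. No test was run between sections. The intervals, partner ranking and clustering were tested on simulated data. Named genes are the members, the fixed lists, the 5 leading partners (10 for the stefin A sum on Day 14) and the leading genes of the Day 14 region. The members and lists were chosen with earlier results of these data known. No doublets were called, since spots hold several cells.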

Additional observations from a re-analysis of the deposited data

Results flagged for a closer look

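The level outside the tissue mark relative to the level under it had one sign on Days 3 and 7 and the other on Day 14, with 1 section per day. The difference between days was not tested. For the stefin A sum the log2 ratio of unmarked over under-tissue spots was 0.67, 0.67 and −1.33 in the order Days 3, 7, and 14. For *Cstdc5* it was 0.59, 0.93 and −1.07, and for *Gm94* 0.60, 0.53 and −0.68. For *Stfa3* it was 0.84 on Day 3 and −1.63 on Day 14, while its Day 7 interval included 0. The Day 3 ratio of the sum was −0.15 among spots with at least 500 UMIs and the Day 7 ratio was −0.011 with unmarked spots at least 5 pitches away, so that the positive sign rests on shallow spots on Day 3 and on spots beside the tissue on Day 7. Both values stood above the Day 14 ratio of −1.33 (−1.63 to −1.03), which was taken over all spots and not under those settings. Without the disc around the richest spot the Day 14 ratio was less negative, as given below, and near the all-gene median of −0.54.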

How the results depend on the processing

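No paired analysis was possible because each day has 1 section, and no section could be left out for the same reason. Of the values tried under other settings, 137 stayed within counting error or within 1.5 times, 100 moved further and 6 changed sign. TMM or DESeq2 scaling, a denominator without mitochondrial and haemoglobin genes, and spots with at least 500 UMIs moved no day ratio of the stefin A sum beyond its counting error. Its Day 7 over Day 3 log2 ratio was −1.78 as a mean of spot CPM, −2.70 without *Stfa3*, −1.58 without the 10 richest spots and −1.13 without the disc around the richest spot; the last 2 settings were chosen after seeing the data. Day 14 over Day 7 was −1.37, −1.14, −1.41 and −1.50 under the same settings and −1.64 over all spots. Day 14 over Day 3 was −3.87 over all spots, −3.84 without *Stfa3* and −2.62 without the disc. Outside over under tissue, the sum changed sign on Day 3 with spots of at least 500 UMIs (−0.15; *Stfa1* −0.25, *Cstdc5* −0.34) and on Day 7 with unmarked spots at least 5 pitches away (−0.011; *Stfa1* −0.074). Without the disc it was 1.5, 0.24 and −0.55 on Days 3, 7, and 14, and the levels under tissue that moved were, for Days 3 and 14, 236 and 38.4 CPM for the sum, 68.7 and 18.8 for *Stfa3* and 139 and 17.1 for *Cstdc5*, with 27.6 for *Stfa1* on Day 3 and 62.6 for *Gm94* on Day 14. Shares of spots with a stefin A UMI scale with the thinning depth by construction, at 13.5%, 6.31% and 2.03% for 500 UMIs and 42.6%, 18.0% and 7.84% for 2000 UMIs. With 4 centres the Day 14 region grew to 253 spots, with 86.6% of the stefin A UMIs and a log2 ratio of 2.0. The leading partners depended on the measure. Spearman correlation kept 3 of 5 genes of the sum on Day 3, 1 on Day 7 and 6 of 10 on Day 14, and 3, 2 and 1 of 5 for *Gm94*. Thinning kept 2, 1 and 3 for the sum and 0, 0 and 2 for *Gm94*. A gene minimum of 500 UMIs kept 0 *Gm94* partners on Day 3 and 1 on Day 7, and a minimum of 50 kept 3 on Day 7. With at least 3 stefin A UMIs per spot the list ratios on Days 3, 7, and 14 were 1.17, 0.56 and 1.56 for basal, 0.88, 0.38 and 2.0 for suprabasal, 0.68, 0.043 (a change of sign) and 1.77 for cornified, and 2.11, 0.65 and −0.63 for wound-activated genes, and 0.28 for neutrophil genes on Day 3. Causes were not tested. Depth limits *Stfa2*, *Cstdc6* and the near-identical copies, which had few UMIs.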
